A study of Malus x robusta with 27 samples.

Results

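Flowers of the strongly fragrant progeny (SF) and the weakly fragrant progeny (WF) of Malus robusta were compared at the small balloon stage, which the study calls the early balloon stage (EB), before the flower opens. The comparison used the 3 SF and 3 WF libraries that carry these genotype and stage labels, 6 of the 27 libraries of the series. The other libraries came from standard M. robusta flowers (Mr) and from the early (ES) and late (LS) flowering stages, with 3 libraries in each of 9 groups, and were used here only for context. SF and WF were each a single individual chosen among the progeny of M. robusta for the strength of its scent, and the sequenced samples were individual whole flowers cut from nursery trees, with no treatment. The 3 replicates of a group are therefore flowers of 1 tree, so scent strength and every other difference between these 2 trees cannot be told apart, and p-values measure the spread between flowers. RNA was read as FPKM, the fragments on a gene scaled to its length and to the depth of the library, for 48445 genes of the apple HFTH1 genome v1.0, 44677 with HF identifiers and 3768 that the authors assembled newly.

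Floral scent is a mixture of small volatile molecules that the flower makes from a few starting points. Terpene synthases build terpenes from the prenyl diphosphates of the plastid and cytosol, the phenylpropanoid route turns phenylalanine into benzenoids that methyltransferases and acyltransferases convert to volatile esters and ethers, and lipoxygenases start the breakdown of fatty acids to green leaf volatiles. Much of this enzyme equipment belongs to large families, such as the cytochrome P450 monooxygenases and the 2OG-Fe(II) dioxygenases, whose members also serve hormone, pigment, wax and defence metabolism.

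The SF libraries held 16146228 to 18484649 fragments on genes and the WF libraries 21277997 to 29558381. For a gene of 1 kb, 3 fragments equalled an FPKM of 0.0950 to 0.185 over these 6 libraries, a limit that covers counting error only. The SF flowers differed more among themselves than the WF or Mr flowers, with root mean square SDs of log2(FPKM + 1) of 0.505, 0.309 and 0.186. SF_EB_1 and SF_EB_3 correlated at 0.906 across genes, below the 0.936 reached between an SF and a WF library, and differed by at least 1 on the log2 scale in 2652 genes (8.94%). The difference between SF_EB_2 and SF_EB_3 correlated across genes at 0.457 with the change of Mr flowers from EB to ES, and that between SF_EB_1 and SF_EB_2 at -0.405. The part of this spread in the results below was not tested. Transcripts of 1 tree that the remaining flowers of the other tree lacked had a median of 0% of that level in each of the 6 libraries. MADS-box factors, which set floral organ identity, were present in all 6 libraries, with summed levels of 2878 to 3075.2 FPKM in SF and 2628 to 2876 in WF.

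Of 29660 genes tested, 2250 (7.59%) were differentially expressed (DEGs, adjusted p under 0.05 by limma with Benjamini-Hochberg adjustment, any fold change). SF had the higher level for 1256 of them (4.23%) and the lower level for 994 (3.35%). The median absolute log2 fold change of the DEGs was 1.15, and the median signed log2 fold change (SF minus WF) of all tested genes was -0.0044. A log2 fold change of at least 1 in size was found for 1389 DEGs (785 higher, 604 lower) and of at least 3 for 127 (66 higher, 61 lower). In all 2250 DEGs the 3 SF values lay outside the range of the 3 WF values, as they did in 32.4% of all tested genes. Leaving out SF_EB_2 gave 1110 DEGs, WF_EB_1 1291, WF_EB_2 872 and WF_EB_3 1145, and 753 DEGs (2.54% of tested genes) were called in all 6 fits with 1 library left out. Named DEGs were called in all 6 of these fits unless a value without a library is given. All fold changes refer to log2(FPKM + 1) and so are compressed for genes of low level.

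The gene that differed most was HF32696, on chromosome 17 from 24704931 to 24708458, whose DUF642 domain marks a family of secreted plant cell wall proteins. Its FPKM was 816, 876 and 873 in SF flowers 1, 2 and 3 and 1.12, 1.27 and 0.682 in the WF flowers (log2 fold change 8.74, SE 0.13, adjusted p = 1.84e-05), so a transcript at the bottom of the range in WF was among the abundant ones in every SF flower. HF39406, on chromosome 5 from 6448370 to 6449647, with the binding and C-terminal domains of the pyridoxal-dependent decarboxylases that act on ornithine, arginine or diaminopimelate in other organisms, was at 114, 366 and 166 in SF and at 0 in each WF flower (log2 fold change 7.58, SE 0.41, adjusted p = 4.79e-04). Against the WF floor of 3 fragments in a library, its SF mean was at least 1966-fold higher. HF26406, a stress responsive A/B barrel protein on chromosome 16 from 11153671 to 11155344, was at 65.7, 73.7 and 65.2 in SF and 0 in every WF flower, at least 161-fold higher (log2 fold change 6.11, SE 0.12, adjusted p = 4.80e-05). In these 3 genes no SF flower came near any WF flower, and HF39406 varied over 3-fold among the SF flowers, highest in SF_EB_2.

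HF08921, of glycosyl hydrolase family 1, which holds the beta-glucosidases that free scent alcohols and other molecules from their sugars, had FPKM of 81, 81.1 and 52.5 in SF and 0.212, 0.404 and 0.207 in WF (log2 fold change 5.81, SE 0.21, adjusted p = 1.95e-04). HF41921, a serine carboxypeptidase domain gene of a family that includes acyltransferases, was at 50.1, 49.6 and 45.2 and 0.616, 0.372 and 0.595 (log2 fold change 5.01, SE 0.13, adjusted p = 1.15e-04). HF40311, a metallothionein, a small protein that binds metal ions, was at 18.6, 34.6 and 27.3 in SF and 0 in WF, at least 43.7-fold higher (log2 fold change 4.76, SE 0.24, adjusted p = 3.93e-04). In each of these, all SF flowers stood clear of all WF flowers. Among the 10 largest rises, 3 had no domain description. HF02178 was at 46.7, 32.5 and 21.4 in SF and 0 in WF, HF21602 at 36.8, 48.8 and 38.6 and 0.457, 0.414 and 0.696, and HF27202 at 32.8, 43.7 and 34.1 and 0.77, 0.679 and 0.281 (log2 fold changes 5.04, 4.79 and 4.59, adjusted p 5.07e-04, 1.68e-04 and 2.95e-04). HF02178 differed 2-fold or more between SF_EB_1 and SF_EB_3, the other 2 by less.

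The largest fall belonged to HF42181, which carries a domain of the Rubisco small subunit, part of the carbon-fixing enzyme of chloroplasts. Its FPKM was 0.825, 1.27 and 0 in SF and 95.9, 215 and 283 in WF (log2 fold change -6.82, SE 0.48, adjusted p = 0.0011). Its neighbour HF42182 on chromosome 13, with no description, was at 0.152, 0 and 0.493 and 43.1, 73.9 and 87.9 (log2 fold change -5.79, adjusted p = 4.42e-04). Both were near absent from SF, and WF_EB_3 held over 2 times the level of WF_EB_1. The 5 genes of the Rubisco small subunit domain proper held no DEG. Their summed FPKM was 694 to 1309.8 in SF and 1572 to 1987 in WF, without overlap. HF03269, with no description, was at 0.118, 0.181 and 0.0852 in SF and 70.9, 122 and 188 in WF (log2 fold change -6.72, SE 0.34, adjusted p = 4.06e-04), about as low in SF as 3 fragments (an FPKM of 0.136 for its length).

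HF40244, a 2OG-Fe(II) oxygenase on chromosome 3 from 7005096 to 7008012, was at 3.88, 5.51 and 12.6 in SF and 384, 293 and 352 in WF (log2 fold change -5.50, SE 0.37, adjusted p = 9.70e-04), and SF_EB_3 held over 3 times the level of SF_EB_1. HF25506, with a protein tyrosine kinase domain, was at 0 in the SF flowers and at 20.3, 54.8 and 54.2 in WF, at least 189-fold lower in SF (log2 fold change -5.33, SE 0.39, adjusted p = 0.00125). HF02451 carries DUF588, a domain of membrane proteins of the Casparian strip family, and was at 0.371, 0.107 and 0.201 and 32.2, 30.3 and 37.1 (log2 fold change -4.80, SE 0.16, adjusted p = 1.55e-04). The WF values of these genes lay far above all SF values. A newly assembled gene with integrase and gag domains of a copia retroelement, on chromosome 9 from 16200876 to 16204656, was at 0.428, 0.129 and 0 in SF and 21.7, 26.8 and 66.5 in WF (log2 fold change -4.90, adjusted p = 0.00236). HF35621 and HF01719 had no description, and their FPKM were 0, 0.292 and 0.0919 and 0, 0 and 0 in SF against 26.2, 36.7 and 46.7 and 26.5, 28.3 and 32.8 in WF (log2 fold changes -5.03 and -4.91, adjusted p 3.56e-04 and 1.15e-04).

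**Figure D1:**
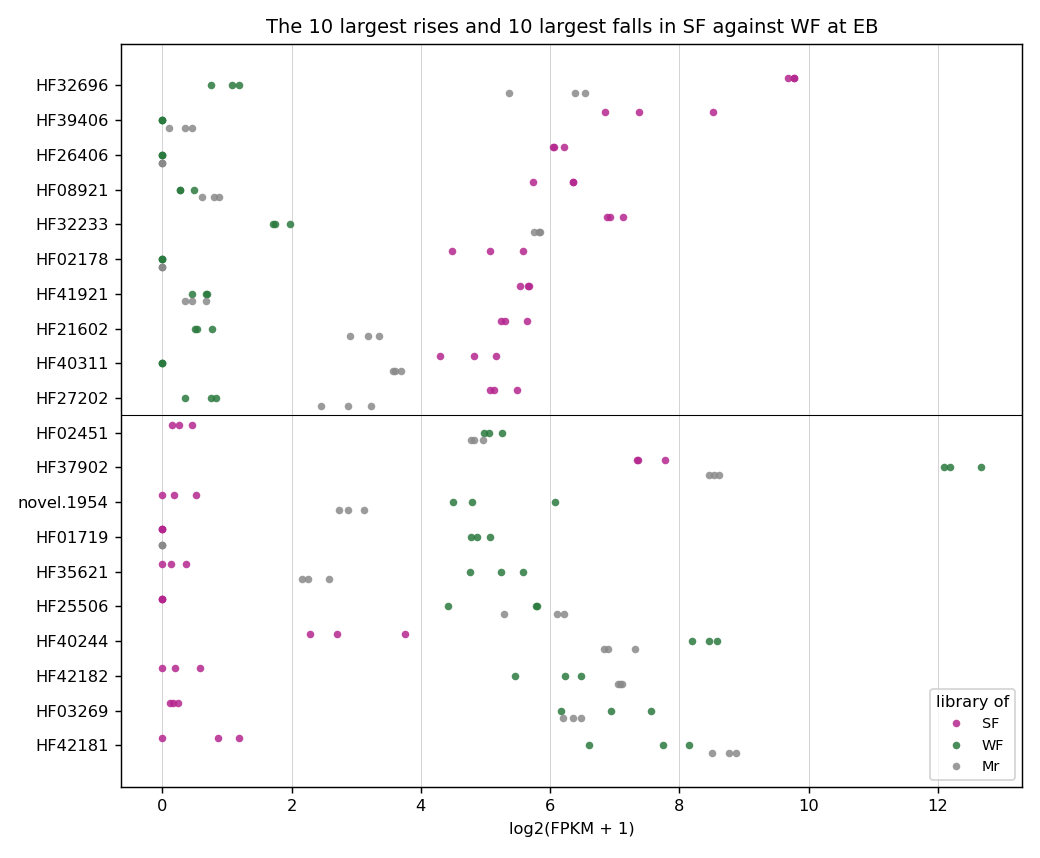
Level of the 10 genes with the largest rise (above the line) and the 10 with the largest fall (below it) in SF against WF at EB. Each point is 1 library on the log2(FPKM + 1) axis, with Mr flowers of the same stage for context, and in every row the 3 SF points lie apart from the 3 WF points.

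In abundance the contrast was led by HF37902 on chromosome 12 from 26051489 to 26051830, of the LTP family of small secreted proteins that carry lipids to the cell surface. Its FPKM was 219, 163 and 161 in SF and 6535, 4383 and 4644 in WF, 28.7 times as high in the WF mean (log2 fold change -4.83, SE 0.24, adjusted p = 3.79e-04). This single gene carried most of the gap in the summed level of the 40 lipid transfer genes, which was 3757 to 4537 FPKM in SF and 8912 to 11901 in WF. Only HF37905, 3 identifiers away on the same chromosome, was also a DEG in this family, at 5.66, 4.63 and 9.69 against 91.5, 123 and 69.8 (log2 fold change -3.66, adjusted p = 0.00201). A new gene lying on chromosome 2 from 28054341 to 28060857 joins a fatty acid hydroxylase domain to the WAX2 domain of the Arabidopsis enzymes that make cuticle alkanes, and was at 187, 53.7 and 52.4 in SF and 954, 815 and 960.1 in WF (log2 fold change -3.47, SE 0.50, adjusted p = 0.013). SF_EB_1 held over 3 times the level of the other 2 SF flowers, and the call was lost in 4 of the fits with 1 library left out (adjusted p = 0.0592 without WF_EB_2).

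Another 3 abundant genes were lower in SF by less than 1.2 on the log2 scale. They were the ribosomal protein gene HF26615 (SF 276, 206 and 272, WF 448, 606 and 633, log2 fold change -1.16), the annexin HF35377 (SF 303, 254 and 263, WF 613, 429.6 and 439, -0.84) and the elongation factor HF00781 (SF 312, 281 and 307, WF 575, 458 and 506, -0.77). Their adjusted p reached 0.0234, 0.0469 and 0.0256, and rose to at most adjusted p = 0.0992 without WF_EB_2, adjusted p = 0.141 without SF_EB_2 and adjusted p = 0.0845 without WF_EB_3. Among abundant genes higher in SF, HF19877 had no description and was at 1128, 1395 and 1113 against 537, 351 and 267 (log2 fold change 1.70, adjusted p = 0.0213; adjusted p = 0.0963 without WF_EB_2). HF40195, also without description, was at 894, 1055 and 911 against 323, 499.6 and 549.5 (log2 fold change 1.09, adjusted p = 0.0477; adjusted p = 0.14 without SF_EB_2). The translationally controlled tumour protein gene HF43153 was at 869.8, 769.6 and 725 against 512, 504 and 479 (log2 fold change 0.66, adjusted p = 0.0462; adjusted p = 0.157 without WF_EB_2). The groups did not overlap in any of these genes, and none of them passed in all 6 fits with 1 library left out.

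Families tied to scent differed in their share of DEGs, from 0% to 20% beside the 7.59% of all tested genes. Of 15 terpene synthases tested, 1 was higher and 1 lower (13.3%, 0 to 2 a fit with 1 library left out). HF03677 was at 3.34, 2.63 and 9.61 in SF and 0.349, 0.164 and 0.294 in WF (log2 fold change 2.12, SE 0.41, adjusted p = 0.0339; adjusted p = 0.126 without WF_EB_2), and HF04465 at 0.223, 0.0367 and 0.484 and 9.01, 6.41 and 2.94 (log2 fold change -2.43, SE 0.36, adjusted p = 0.0151; adjusted p = 0.0728 without WF_EB_2). The summed level of the family overlapped between the trees, at 282 to 394 FPKM in SF and 341 to 424 in WF. The 16 SABATH methyltransferases, which make methyl esters such as methyl benzoate, held no DEG, and their sum ran from 1098 in SF_EB_1 to 2483 in SF_EB_2, wider than the WF range of 1019 to 1383. No DEG was found among 6 aromatic amino acid lyases, the entry enzymes of the phenylpropanoid route, or 6 chalcone synthases, which start flavonoid synthesis.

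The O-methyltransferases, which add methyl groups to phenols, had 7 DEGs among 35 tested genes (20%, 3 higher and 4 lower), of which 2 were called with each library left out (2 to 7 calls a fit). HF15239 was at 24, 52.3 and 39.1 in SF and 6.49, 4.6 and 3.75 in WF (log2 fold change 2.69, SE 0.31, adjusted p = 0.00649), every SF flower above every WF flower by more than 3-fold. HF17261 was at 69.7, 52.8 and 84.8 and 4.34, 7.63 and 19.7 (log2 fold change 2.81, SE 0.50, adjusted p = 0.0259; adjusted p = 0.105 without WF_EB_2). In the other direction, HF33556 was at 4.23, 3.81 and 2.77 and 10.5, 10.6 and 10.3 (log2 fold change -1.33, SE 0.16, adjusted p = 0.00781; adjusted p = 0.0504 without WF_EB_2), and HF33550, also on chromosome 9, was at 0.686, 0.225 and 0.106 and 3.32, 1.85 and 1.71 (log2 fold change -1.29, adjusted p = 0.0348; adjusted p = 0.12 without SF_EB_2). The median log2 fold change of the family was -0.05.

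The BAHD acyltransferases, which join acyl groups from coenzyme A to alcohols and amines and include the enzymes that form acetate and benzoate esters, had 10 DEGs among 66 (15.2%, 4 higher and 6 lower), 3 of them called with each library left out (3 to 9 a fit). HF15733 was near absent from SF at 0.12, 0 and 0.0435 and stood at 9.73, 15.7 and 21.7 in WF (log2 fold change -3.92, SE 0.28, adjusted p = 0.0012), and HF21620 was at 0, 0.481 and 0.34 and 6.82, 18.8 and 22.3 (log2 fold change -3.61, SE 0.44, adjusted p = 0.00739). HF36333, the most abundant of those named, was at 165, 263 and 203 in SF and 53.2, 64.4 and 87.2 in WF (log2 fold change 1.61, SE 0.24, adjusted p = 0.0152; adjusted p = 0.0742 without WF_EB_2). HF40207 was at 4.24, 14.3 and 8.95 and 0.41, 0.719 and 0.562 (log2 fold change 2.57, SE 0.39, adjusted p = 0.016; adjusted p = 0.0676 without WF_EB_2). The family therefore held members almost confined to the WF flowers beside members higher in SF, with a median log2 fold change of -0.04.

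Both DEGs among the 23 lipoxygenases were higher in SF (8.7%, near the 7.59% of all tested genes). The family as a whole was not, with a median log2 fold change of -0.11. Groups did not overlap in 34.8% of its members (32.4% of all genes), 3 higher and 5 lower in SF. HF13896 was at 8.58, 5.87 and 11.2 in SF and 1.22, 1.44 and 1.59 in WF (log2 fold change 1.95, SE 0.24, adjusted p = 0.00739), and HF16930 at 2.96, 3.99 and 1.71 and 0.0245, 0.0666 and 0.0896 (log2 fold change 1.83, SE 0.23, adjusted p = 0.00836). HF13896 and HF16930 were several-fold higher in each SF flower, but other members held most of the summed level of the family. That level was 493 to 789 in SF and 687 to 1074 in WF, so the sums overlapped. Of the zinc-binding alcohol dehydrogenases, which interconvert alcohols and aldehydes, 1 was higher and 2 lower among 52, with HF23783 at 0.0549, 0 and 0.178 in SF and 4.53, 5.37 and 5.49 in WF (log2 fold change -2.51, SE 0.14, adjusted p = 4.93e-04). The short-chain dehydrogenases, another reductase family, had 7 higher and 4 lower among 87 (12.6%, 3 to 7 calls a fit with 1 library left out). HF08356 was at 96.1, 195 and 110.1 and 18.3, 13.6 and 18.4 (log2 fold change 2.87, SE 0.28, adjusted p = 0.00379), and a newly assembled member on chromosome 6 from 18537738 to 18539673 was at 33.7, 67.1 and 40.3 and 8.47, 5.73 and 6.37 (log2 fold change 2.56, adjusted p = 0.0051). In both genes SF_EB_2 was the highest of the SF flowers and every WF flower was below 19 FPKM.

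Genes that the study linked to scent volatiles were read as lists. Of 43 homologues of known volatile pathway genes, 42 were tested, with 4 higher and 1 lower in SF (11.9%, median log2 fold change -0.04). By pathway, leaf acetate had 3 higher of 17, linalool 1 higher and 1 lower of 17, and methyl anthranilate and methyl benzoate none of 5 and 3. The 4 higher were the lipoxygenase HF16930 above, the acyltransferases HF27219 (SF 1.56, 2.24 and 2.57, WF 0.237, 0.184 and 0.185, log2 fold change 1.36) and HF10164 (SF 1.63, 1.79 and 1.95, WF 1.0, 0.532 and 0.736, 0.67, adjusted p = 0.154 without WF_EB_2), and HF41298, a DXR that commits carbon to the plastid terpene route (SF 64.2, 54.3 and 45.6, WF 29.5, 32 and 30.3, 0.81, adjusted p = 0.0886 without WF_EB_2). The lower was the terpene synthase HF04465.

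A network of 14 genes that the study tied to volatiles, a choice made on these samples and so no independent evidence of direction, had 10 tested genes, 3 of them higher in SF and none lower. HF21345, named by the study as a cupredoxin, a small copper protein, was at 21.6, 55 and 16.6 in SF and 0.322, 0.728 and 1.18 in WF (log2 fold change 4.04, SE 0.46, adjusted p = 0.0059). HF25022, of the MLO family of membrane proteins known from powdery mildew susceptibility, was at 32.7, 61.3 and 41.8 and 4.54, 11.1 and 10.4 (log2 fold change 2.29, SE 0.37, adjusted p = 0.0197; adjusted p = 0.0734 without SF_EB_2). A new gene lying on chromosome 2 from 23494446 to 23502946 was at 0.657, 1.46 and 0.712 in SF and 0 in WF (log2 fold change 0.93, SE 0.17, adjusted p = 0.0285; adjusted p = 0.11 without WF_EB_2). SF_EB_2 was the highest SF flower for all 3. It was so too for an uncalled new gene lying on chromosome 2 from 30130017 to 30131178, at 245, 903 and 333 in SF and 77.7, 79.7 and 147 in WF (log2 fold change 2.10, adjusted p = 0.07), and for the Myb gene HF38968, at 1.1, 10.6 and 1.2 and 0.303, 0.206 and 1.06 (log2 fold change 1.35, adjusted p = 0.281).

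The remaining network members had small values at EB. The peroxidase HF23619 was at 1.63, 1.44 and 1.3 in SF and 0.331, 0.866 and 0.95 in WF (adjusted p = 0.137), the cytochrome P450 HF08054 at 0.183, 0.702 and 0.232 and 0.0531, 0.162 and 0.0485 (adjusted p = 0.278), and a newly assembled retroelement gene on chromosome 7 from 7901036 to 7902012 at 2.04, 1.07 and 0.0671 and 0 (adjusted p = 0.191). HF32028 was at 1.69, 6.53 and 3.27 and 2.63, 1.93 and 4.32 (adjusted p = 0.795) and a new gene lying on chromosome 5 from 32109492 to 32113565 at 0.0813, 0.935 and 0.441 and 0.212, 0 and 0 (adjusted p = 0.281). The 4 untested members, among them the terpene synthase HF22080 and the terpenoid cyclase HF22079, stayed under an FPKM of 1 in each of the 6 libraries. On the study's phenylpropanoid map, 4 of 6 genes were tested. HF25290, named as an O-methyltransferase on the map, was at 1.14, 1.6 and 0.55 in SF and 17.8, 11 and 18.9 in WF (log2 fold change -3.01, SE 0.28, adjusted p = 0.00317). It is not among the 35 O-methyltransferase genes counted above. The lyases HF05496 (SF 13.8, 39.9 and 17.4, WF 9.14, 24.5 and 19.9) and HF01560 (SF 2.8, 3.54 and 5.54, WF 11.6, 5.06 and 2.9) and the cinnamyl alcohol dehydrogenase HF25090 (SF 1.18, 0.883 and 1.32, WF 3.78, 2.89 and 1.91) had adjusted p of 0.697, 0.562 and 0.0773. Of these 4, HF25290 and HF25090 had groups that did not overlap.

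**Figure D2:**
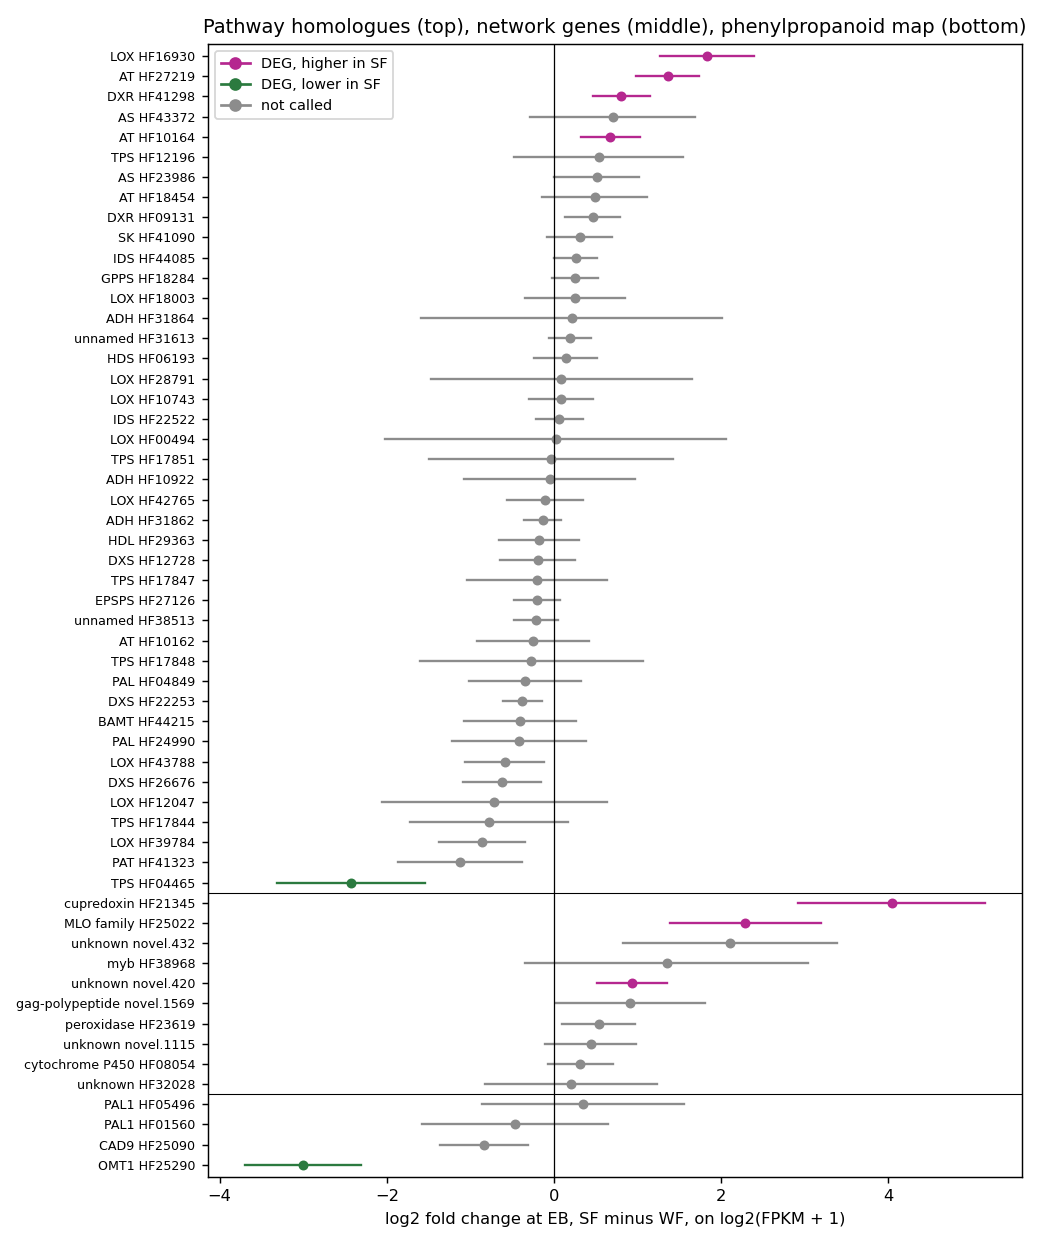
Log2 fold change (SF minus WF at EB, on log2(FPKM + 1)) of the 42 tested volatile pathway homologues, the 10 tested network genes and the 4 tested genes of the phenylpropanoid map, with 95% intervals from limma. Most pathway intervals include 0. The points of all 10 network genes lie to the right of it, but only 3 of them were called, and the network was chosen on these samples.

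Among 201 cytochrome P450 genes, the monooxygenases of hormone and specialised metabolism, 6 were higher and 17 lower (11.4%, median log2 fold change -0.14), and 12 of them, 5 higher and 7 lower, were called with each library left out. The summed level still was higher in SF, 3587 to 4339.6 FPKM against 2611 to 2861, a gap carried by 3 neighbouring models and not by the family at large. These 3, the most abundant P450 DEGs, lay on chromosome 17 between 31375785 and 31393578 and were all higher in SF. HF32233 was at 120.4, 139 and 116 in SF and 2.27, 2.35 and 2.95 in WF (log2 fold change 5.16, SE 0.13, adjusted p = 1.11e-04), HF32232 at 902, 1135 and 884 and 92.2, 83.2 and 103 (log2 fold change 3.37, SE 0.15, adjusted p = 3.21e-04), and HF32231 at 413, 521 and 390.1 and 17.2, 32.2 and 41.5 (log2 fold change 3.89, SE 0.32, adjusted p = 0.00197). Their lengths of 390, 261 and 312 bases are below the median of the tested P450 genes, all 3 lie on the same strand, and whether they are parts of 1 gene was not tested. Mr flowers also held them, at 708, 732 and 832 for HF32232.

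The largest P450 falls also lay side by side, on chromosome 14 between 29493472 and 29536188. HF24647 was at 0.431, 1.24 and 0.311 in SF and 21.5, 37.4 and 36.7 in WF (log2 fold change -4.31, SE 0.30, adjusted p = 0.0011), and a newly assembled P450 gene (chromosome 14 from 29495611 to 29517418), which overlaps 2 further new genes, at 0.635, 1.05 and 0.43 and 17.7, 25 and 19.98 (log2 fold change -3.69, SE 0.21, adjusted p = 5.07e-04). Its overlap partners were a P450 gene starting at 29502264 (SF 0, WF 1.15, 2.41 and 3.9; adjusted p = 0.0962 without WF_EB_2) and a gene without description starting at 29499362 (SF 0, 0.10 and 0, WF 1.98, 0.877 and 0.833; adjusted p = 0.0991 without SF_EB_2). With the P450 HF24645 (SF 0.307, 0.392 and 0.259, WF 5.4, 2.03 and 2.09; adjusted p = 0.112 without SF_EB_2) they made a run of 5 neighbours lower in SF. Overlapping models can share reads, so these 3 new genes are not independent.

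The 2OG-Fe(II) oxygenases, dioxygenases of flavonoid, gibberellin and alkaloid routes, had 17 DEGs among 121 (14%, 8 higher and 9 lower), 3 of them called with each library left out (3 to 14 a fit). Beside HF40244 above, HF03130 was at 0, 0.0554 and 0 in SF and 6.33, 9.73 and 11 in WF (log2 fold change -3.27, SE 0.21, adjusted p = 8.55e-04), and HF43402 was at 7.59, 14.6 and 11.3 and 1.03, 0.631 and 1.47 (log2 fold change 2.55, SE 0.28, adjusted p = 0.00504). SF was at or near 0 in HF03130 and WF was the low tree in HF43402, so the family again held opposite contrasts. The class III peroxidases (3 higher and 3 lower of 75), UDP-glycosyltransferases (2 and 5 of 97), glutathione S-transferases (1 and 3 of 60), carboxylesterases (0 and 2 of 40) and AMP-binding enzymes (1 and 1 of 50) had shares of 4% to 8%, near or below that of all genes. The carboxylesterase HF12581 was at 0 in SF and 4.04, 3.04 and 3.07 in WF (log2 fold change -2.12, SE 0.13, adjusted p = 7.90e-04). The epimerase HF10031 was at 14.9, 12.5 and 12.1 in SF and 0.188, 0.064 and 0.0861 in WF (log2 fold change 3.67, SE 0.15, adjusted p = 2.83e-04) and HF34654 at 2.95, 2.52 and 3.42 and 18, 15.1 and 15.1 (log2 fold change -2.11, SE 0.15, adjusted p = 0.00116), in a family with 3 higher and 1 lower of 68.

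Multicopper oxidases, which include laccases, had 3 lower and none higher of 50 (6%, below the 7.59% of all genes) and a median log2 fold change of -0.38. In 14 members (28%) the groups did not overlap, 13 of them lower in SF (32.4% of all genes did not overlap, 15.6% with SF lower). Of the 3 DEGs, 1 was called with each library left out, and 0 kept their sign at ES and 3 at LS. The summed level of the family varied most among the SF flowers, at 2282, 917 and 393 FPKM in flowers 1, 2 and 3 against 1107 to 1338 in WF. HF27636 was at 0.411, 0.145 and 0.103 in SF and 2.55, 1.64 and 2.38 in WF (log2 fold change -1.39, SE 0.17, adjusted p = 0.00794).

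Aquaporins, the channels for water and small solutes, had the largest share of DEGs of the families with at least 15 tested genes, 8 of 31 (25.8%), with 1 higher and 7 lower in SF. Only 1 of the 8 was called with each library left out, and the calls ranged from 1 to 7 over those fits. HF34181 was at 0.222, 0.204 and 0.337 in SF and 5.25, 2.02 and 4.76 in WF (log2 fold change -1.93, SE 0.29, adjusted p = 0.0162; adjusted p = 0.0723 without SF_EB_2), and HF35962 at 18, 15.8 and 25.6 and 38.7, 39.6 and 52.2 (log2 fold change -1.11, SE 0.21, adjusted p = 0.0322; adjusted p = 0.0995 without WF_EB_2). The member that was higher, HF25008, was abundant, at 514, 681 and 600.0 and 366, 381 and 330.5 (log2 fold change 0.73, SE 0.15, adjusted p = 0.045; adjusted p = 0.134 without WF_EB_3). Summed, the family was at 7157 to 7757 FPKM in SF and 7516 to 7922 in WF, so the sums overlapped.

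Expansins, which loosen cell walls during petal growth, had 3 higher and 6 lower of 46 (19.6%), 4 of them called with each library left out (4 to 9 a fit). HF37800 was at 10.9, 6.59 and 6.36 in SF and 0 in WF, at least 22.4-fold higher (log2 fold change 3.13, SE 0.22, adjusted p = 0.00103), and HF37373 at 58, 53.7 and 31.9 and 12.1, 9.49 and 12.6 (log2 fold change 1.94, SE 0.25, adjusted p = 0.00858). HF42425 was at 15.4, 9.96 and 16 and 76, 80.2 and 29.3 (log2 fold change -1.99, SE 0.42, adjusted p = 0.0437; adjusted p = 0.141 without SF_EB_2). The xyloglucan endotransglucosylases, which cut and rejoin wall glucans, had 1 DEG of 28, while their summed level was 10391 FPKM in SF_EB_2, 4310.5 and 4677 in the other SF flowers and 3891 to 4365 in WF.

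Of 75 pectinesterases and inhibitors, which modify wall pectin, 1 was higher and 6 were lower in SF (9.33%, near the 7.59% of all genes). Only 1 higher and 1 lower of them were called with each library left out (2 to 12 a fit). Polygalacturonases and pectate lyases had 1 lower of 67 (1.49%, 1 to 7 a fit). The inhibitor-domain gene HF37321 was at 203, 181 and 246 in SF and 74.7, 45.9 and 60.02 in WF (log2 fold change 1.80, SE 0.21, adjusted p = 0.00615), well above every WF flower. The pectinesterase HF28911 was at 8.47, 8.53 and 6.6 and 24.8, 17.9 and 22.3 (log2 fold change -1.35, SE 0.17, adjusted p = 0.00789), and the pectate lyase HF04720 at 12, 12.1 and 12 and 32.3, 27.3 and 25.1 (log2 fold change -1.15, SE 0.12, adjusted p = 0.00447). Both cellulose synthase DEGs (of 30) were lower and close neighbours on chromosome 3, with HF39844 at 3.11, 3.76 and 2.89 and 11.4, 13.5 and 15.2 (log2 fold change -1.75, SE 0.16, adjusted p = 0.00307) and HF39842 at 0.274, 0.286 and 0.135 and 1.34, 1.32 and 1.92 (log2 fold change -1.03, adjusted p = 0.0102). All 6 GDSL lipase DEGs of 66, a family of lipid hydrolases that also builds cutin, were lower in SF (9.09%, 2 of them called with each library left out, 2 to 8 a fit), led by HF19280 at 8.54, 3.12 and 4.03 and 39.8, 37.7 and 41.3 (log2 fold change -2.80, SE 0.31, adjusted p = 0.00547). The median over all tested GDSL lipases was -0.31.

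Transporters of the ABC-2 and MatE types, which export specialised metabolites, had 14.8% and 12.1% DEGs beside the 7.59% of all genes, with 4 higher and 4 lower of 54, and 3 and 4 of 58. In each family 1 DEG was called with each library left out (1 to 8 and 1 to 6 a fit). The ABC-2 gene HF42954 was at 3.05, 4.31 and 2.67 in SF and 0.051, 0.0346 and 0.14 in WF (log2 fold change 1.998, SE 0.17, adjusted p = 0.00222). The MatE gene HF04077 was at 36.2, 34.1 and 33.7 and 63.2, 80.7 and 82.2 (log2 fold change -1.09, SE 0.13, adjusted p = 0.0062). Sugar transporters had 3 lower of 89 (3.37%), none of them called with each library left out, and 0 to 14 calls a fit.

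Transcription factor families held few DEGs. Shares were 0% for 89 WRKY, 1.27% for 79 homeobox, 2.13% for 47 GRAS, 2.27% for 264 Myb-like, 3.01% for 133 AP2/ERF, 3.7% for 108 NAC, 4.11% for 73 MADS-box and 6.86% for bHLH genes, all below 7.59%. The clearest member was the MADS-box gene HF21574 on chromosome 8 from 7033107 to 7038486, at 35.2, 26.5 and 20.6 in SF and 0.602, 0.59 and 0.428 in WF (log2 fold change 4.18, SE 0.22, adjusted p = 4.31e-04). It carries the DNA-binding domain without the K-box of floral organ factors. HF17455, which has both, was at 0.985, 0.697 and 1.89 and 9.29, 7.38 and 4.63 (log2 fold change -1.88, SE 0.30, adjusted p = 0.0196; adjusted p = 0.088 without WF_EB_2).

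Other factors called in all fits were the AP2 genes HF02343, at 0, 0 and 0.109 in SF and 1.62, 3.06 and 3.04 in WF (log2 fold change -1.76, SE 0.20, adjusted p = 0.006), and HF08605, at 47.8, 48.5 and 41.3 and 26.3, 21.9 and 25.2 (log2 fold change 0.88, SE 0.12, adjusted p = 0.00946). The bHLH gene HF12036 was at 0.282, 0 and 0.204 and 2.62, 2.5 and 3.51 (log2 fold change -1.74, SE 0.16, adjusted p = 0.0032). The abundant bHLH gene HF37257 was at 14.1, 4.21 and 7.95 and 38.7, 26.3 and 35.2 (log2 fold change -1.93, adjusted p = 0.0395; adjusted p = 0.129 without WF_EB_1). Of the Myb-like DEGs, none was called with each library left out, with HF37428 at 3.61, 1.88 and 2.24 and 0.448, 0.457 and 0.0683 (log2 fold change 1.42, adjusted p = 0.0199; adjusted p = 0.0721 without WF_EB_2) and HF41292 at 7.39, 7.29 and 11.7 and 27.5, 29.1 and 17.4 (log2 fold change -1.39, adjusted p = 0.0316; adjusted p = 0.119 without WF_EB_2). These regulators were low to moderate in level, and all but HF08605 and HF37428 of those just named were lower in SF.

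The study listed 80 transcription factors picked on these samples, so their share is no independent evidence. Of 78 tested, 11 were higher and 18 lower in SF (37.2%), with a median log2 fold change of -0.01. The most abundant was the CCCH zinc finger gene HF42131, at 303, 499 and 353 in SF and 86.1, 125 and 164 in WF (log2 fold change 1.63, SE 0.29, adjusted p = 0.026; adjusted p = 0.099 without WF_EB_2). The CAMTA gene HF36324, of a calmodulin-binding family, was at 4.48, 7.52 and 4.06 and 1.32, 1.38 and 1.44 (log2 fold change 1.38, adjusted p = 0.0209; adjusted p = 0.0916 without WF_EB_2), and the NF-YB gene HF11588, which overlaps 2 new genes, at 3.47, 3.52 and 4.15 and 1.18, 1.09 and 1.12 (log2 fold change 1.14, adjusted p = 0.00607). Lower in SF were the VOZ gene HF32409, at 2.59, 2.87 and 3.44 and 11.3, 9.67 and 9.52 (log2 fold change -1.49, SE 0.15, adjusted p = 0.00412), and 2 SBP genes, of the family that promotes phase change and flowering in Arabidopsis. HF32947 was at 0.057, 0.0655 and 0.185 and 1.83, 2.22 and 1.36 (log2 fold change -1.34, adjusted p = 0.00552) and HF03261 at 2.79, 2.78 and 2.93 and 10.04, 9.18 and 7.03 (log2 fold change -1.33, adjusted p = 0.00791; adjusted p = 0.052 without WF_EB_2). The B3 gene HF22325 was at 0 in SF and 1.21, 1.69 and 1.45 in WF (log2 fold change -1.29, adjusted p = 0.0024).

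Among auxin-related genes, SAUR proteins, early auxin-induced growth factors, had 3 higher and 1 lower of 47 (8.51% beside 7.59% of all genes, 1 to 6 calls with 1 library left out). Aux/IAA and ARF regulators had 2 higher and 1 lower of 69 (4.35%, 1 to 3). A newly assembled SAUR gene on chromosome 5 from 9842329 to 9847313 was at 0.0226, 0.207 and 0.0489 in SF and 2.86, 4.9 and 5.03 in WF (log2 fold change -2.24, SE 0.21, adjusted p = 0.0031). The Aux/IAA gene HF00156 was at 43.9, 50.7 and 46.4 and 13.8, 23.3 and 20.1 (log2 fold change 1.28, SE 0.19, adjusted p = 0.016; adjusted p = 0.0713 without SF_EB_2), and HF02296 at 3.23, 9.55 and 3.88 and 0.10, 0.272 and 0.55 (log2 fold change 2.22, SE 0.37, adjusted p = 0.0217; adjusted p = 0.0929 without WF_EB_2).

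Immune receptor families had larger shares of DEGs than all tested genes. TIR domain genes, whose products signal from pathogen recognition, had 30 DEGs of 147 (20.4% against 7.59%), 22 higher and 8 lower in SF, and 14 of them (12 higher, 2 lower) were called with each library left out (14 to 29 a fit). Without regard to the test, 51 TIR genes were higher and 21 lower in non-overlapping groups (16.8% and 15.6% of all genes). HF40231 was at 31.7, 51 and 54.2 in SF and 0.817, 1.07 and 0.906 in WF (log2 fold change 4.56, SE 0.23, adjusted p = 3.85e-04), and its neighbour HF40230 on chromosome 3 at 9.76, 28.9 and 21.2 and 0.278, 0.34 and 0.254 (log2 fold change 3.90, SE 0.38, adjusted p = 0.00342). Each SF flower exceeded each WF flower over 20-fold in both. Lower in SF was a newly assembled TIR gene on chromosome 17 from 1503081 to 1504573, at 0 in the SF flowers and 3.37, 3.45 and 2.47 in WF (log2 fold change -2.03, SE 0.14, adjusted p = 9.79e-04). The summed TIR level was 642 to 933 FPKM in SF and 533 to 652 in WF, so the sums overlapped.

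The NB-ARC genes, the nucleotide-binding part of such receptors, had 11 higher and 10 lower of 125 (16.8%), 6 of them called with each library left out (6 to 16 a fit). HF40000 was at 15.5, 14.5 and 13.5 in SF and 0.208, 0.303 and 0.327 in WF (log2 fold change 3.60, SE 0.14, adjusted p = 2.37e-04), HF31157 at 4.55, 11.1 and 9.56 and 0.282, 0.162 and 0.139 (log2 fold change 2.90, SE 0.31, adjusted p = 0.00477), and a newly assembled gene with both NB-ARC and TIR domains (chromosome 5 from 25341497 to 25351714) at 0.156, 0.112 and 0.0845 and 2.39, 2.08 and 2.99 (log2 fold change -1.63, SE 0.14, adjusted p = 0.00201). Members of these families are often near-identical copies in clusters, so their single values are uncertain where reads could be divided between copies.

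Receptor kinases were nearer the background. Leucine-rich repeat kinases had 5 higher and 12 lower of 246 (6.91%), lectin and S-locus kinases 4 and 4 of 72 (11.1%) and wall-associated kinases 2 and 1 of 43 (6.98%). Of the leucine-rich repeat kinase DEGs, 4 higher and 2 lower were called with each library left out. The 2 lower were HF04141 and HF23781, with adjusted p of at most 0.0197 and 0.022 by limma over those fits. The wall-associated kinase HF32306 was at 42.1, 57.9 and 41.9 in SF and 1.95, 2.38 and 1.71 in WF (log2 fold change 3.99, SE 0.18, adjusted p = 3.00e-04). The leucine-rich repeat kinase HF43598 was at 25.2, 9.54 and 10.2 and 0.76, 0.542 and 0.435 (log2 fold change 3.21, SE 0.37, adjusted p = 0.0062), HF39970 at 4.56, 9.53 and 7.48 and 0.485, 0.624 and 0.81 (log2 fold change 2.28, adjusted p = 0.00597), and the S-locus type kinase HF33591 at 0.305, 0.526 and 0.425 and 3.84, 6.14 and 5.76 (log2 fold change -2.12, adjusted p = 0.00263). The chitinase HF30940, an enzyme against fungal walls, was at 20.6, 23.7 and 19 and 2.93, 2.39 and 7.33 (log2 fold change 2.19, adjusted p = 0.0188; adjusted p = 0.0818 without SF_EB_2). Bet v 1 proteins, the family of the main apple and birch allergens, had 1 higher and 3 lower of 31 (12.9%, all genes 7.59%). None of these 4 was called with each library left out (0 to 3 calls a fit). The summed level of the family was 1432 to 1648 FPKM in SF and 2075 to 2481 in WF. HF26539 of this family was at 15.8, 17.2 and 17.5 and 52, 28 and 41.7 (log2 fold change -1.18, adjusted p = 0.0327; adjusted p = 0.107 without SF_EB_2).

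**Figure D3:**
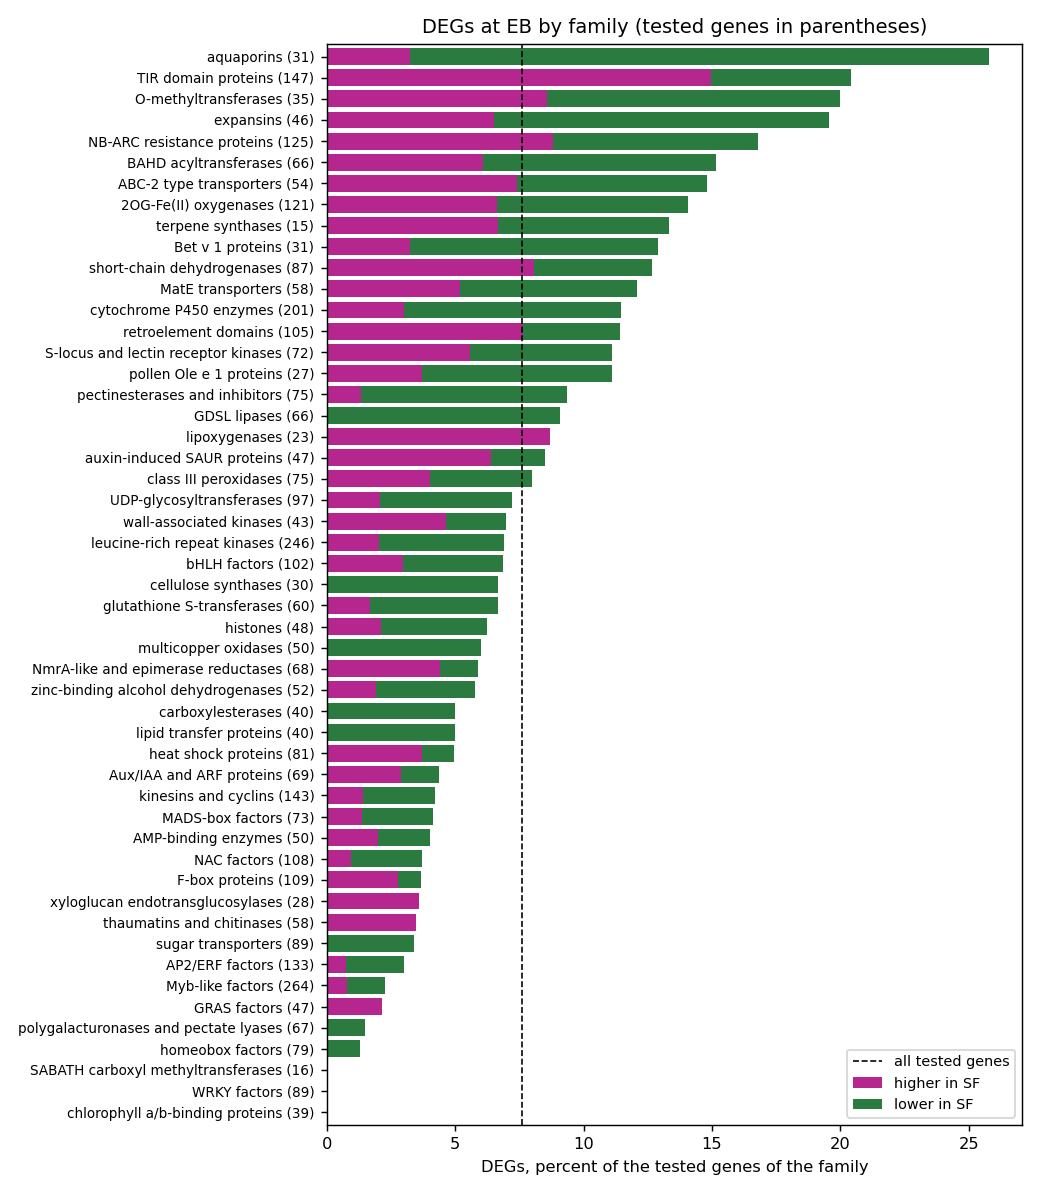
Share of DEGs in each family with at least 15 tested genes, divided into genes higher and lower in SF, with the share over all 29660 tested genes (7.59%) as a dashed line. Aquaporins (25.8%) and TIR domain proteins (20.4%) lie at the top, and SABATH, WRKY and chlorophyll a/b-binding genes had none.

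Genes that report on tissue and growth were read beside the 7.59% of all genes. The 39 chlorophyll a/b-binding genes of green tissue held no DEG, with sums of 4421 to 5829 FPKM in SF and 4499 to 5155 in WF. The 5 Rubisco small subunit genes, also of green tissue, held no DEG either. Their sums did not overlap, at 694 to 1309.8 FPKM in SF and 1572 to 1987 in WF (median log2 fold change -0.62). Pollen Ole e 1 proteins had 1 higher and 2 lower of 27 (11.1%) and sums of 7614 to 8870.4 against 9205 to 9993, and in a whole flower fewer cells of a type and less RNA per cell cannot be told apart. HF40776 of this family was at 102.2, 108 and 162 in SF and 568, 376 and 369 in WF (log2 fold change -1.81, SE 0.25, adjusted p = 0.0116; adjusted p = 0.0559 without SF_EB_2), and HF23935 at 6.06, 6.39 and 5.15 and 0.0878, 0 and 0.161 (log2 fold change 2.66, SE 0.14, adjusted p = 4.51e-04). Histones had 1 higher and 2 lower of 48 (6.25%), with the H2A gene HF44438 at 1.06, 1.37 and 0.862 and 8.41, 10.1 and 11.2 (log2 fold change -2.37, SE 0.17, adjusted p = 0.0012). Kinesins and cyclins had 2 and 4 of 143 (4.2%), with the kinesin HF38275 at 1.56, 1.63 and 1.38 and 6.29, 7.96 and 7.37 (log2 fold change -1.70, adjusted p = 0.00233) and HF05088 at 1.06, 0.954 and 1.06 and 0 (log2 fold change 1.02, adjusted p = 0.0024). Heat shock proteins had 3 and 1 of 81 (4.94%, 0 to 5 a fit with 1 library left out), among them the Hsp70 gene HF24129 at 53.3, 135 and 92.4 and 27.2, 19.7 and 22.6 (log2 fold change 1.88, adjusted p = 0.027; adjusted p = 0.11 without WF_EB_2).

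Retroelement domain genes had 8 higher and 4 lower of 105 (11.4%), 6 of them called with each library left out. Beside the copia gene above, a new gene lying on chromosome 5 from 34399784 to 34402341 was at 24.3, 24.2 and 19.8 in SF and 2.0, 4.11 and 4.16 in WF (log2 fold change 2.46, SE 0.25, adjusted p = 0.00393). Across all 772 Pfam domains with at least 10 tested genes, 312 held no DEG. The highest shares were those of the sucrase/ferredoxin-like domain (5 of 12, 41.7%, 2 higher and 3 lower), an enoyl-CoA hydratase domain of fatty acid and amino acid breakdown (6 of 16, 37.5%, all higher in SF, median log2 fold change 0.36) and the DNA photolyase domain of light receptors and repair (3 of 10). A glycosyltransferase family 2 domain had 4 lower of 16 and none higher (median -0.42). These domains were singled out after their values were seen.

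DEGs were unevenly placed along the genome. Their share ran from 3.19% of tested genes on chromosome 10 to 10.7% on chromosome 3 and 10.3% on chromosome 13. SF was higher for 75.0% of the DEGs on chromosome 10 and 73.8% on chromosome 8, and for 40.4% on chromosome 16. The tested gene next to a DEG was itself a DEG in 18.3% of cases, against 7.59% of all genes, in the same direction for 310 neighbouring pairs and in opposite directions for 101. Overlapping models, which can share reads, counted as neighbours here and in the runs below, and their part was not tested. In all, 235 runs of at least 2 neighbouring DEGs in 1 direction held 545 DEGs, 24.3% of the 2242 placed on a chromosome. Of 557 windows of 1 Mb with at least 20 tested genes, 8 held at least 25% DEGs and the median was 6.38%.

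The longest runs had 6 genes, all higher in SF, and there were 3 of them, 2 on chromosome 7 and 1 on chromosome 2. From 30697179 to 30731921 on chromosome 7 lay HF25571 to HF25576, with HF25576 at 23.1, 25.4 and 24.3 in SF and 0.148, 0.201 and 0.203 in WF (log2 fold change 4.41, SE 0.13, adjusted p = 1.15e-04), HF25574 at 4.68, 6.59 and 4.43 and 0 (log2 fold change 2.62, adjusted p = 7.90e-04), HF25575 at 4.74, 8.3 and 5.38 and 0.147, 0.233 and 0.358 (log2 fold change 2.49, adjusted p = 0.00229), and the UvrD helicase domain gene HF25573 at 2.03, 2.53 and 2.34 and 0 (log2 fold change 1.72, adjusted p = 8.22e-04). HF25572, which joins TIR and helicase domains, was at 7.95, 9.22 and 7.94 and 2.84, 2.36 and 2.58 (log2 fold change 1.38, adjusted p = 0.00412), and the lipase domain gene HF25571 at 10.4, 13.8 and 12 and 5.02, 6.64 and 6.64 (log2 fold change 0.88, adjusted p = 0.0329; adjusted p = 0.108 without SF_EB_2). From 30767003 to 30796940 followed HF25578 to HF25583, with the TIR gene HF25580 at 8.65, 7.45 and 8.54 and 0.084, 0.228 and 0.0384 (log2 fold change 3.05, SE 0.14, adjusted p = 3.52e-04), HF25579 at 6.21, 6.39 and 5.32 and 0.0871, 0.236 and 0.199 (log2 fold change 2.57, adjusted p = 4.51e-04) and the helicase HF25581 at 2.17, 1.77 and 1.88 and 0.0524, 0.0445 and 0.0479 (log2 fold change 1.49, adjusted p = 0.00116). HF25578, HF25582 and HF25583 were at 2.41, 3.7 and 3.87, at 1.02, 0.914 and 1.42 and at 1.86, 4.9 and 5.12 in SF, and at or below 0.411 in every WF flower (adjusted p 0.00224, 0.007 and 0.0218; adjusted p = 0.0842 without WF_EB_1 for HF25583). In Mr flowers HF25573, HF25576 and HF25580 were at 0.

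These 12 genes lie within the span of a newly assembled gene that starts at 30642105, runs for 162432 bases on the minus strand and was itself higher in SF, at 1.73, 1.40 and 1.96 against 0.402, 0.497 and 0.334 (log2 fold change 0.93, adjusted p = 0.0115 by limma; adjusted p = 0.0538 without WF_EB_3). Within that span 13 of 20 other tested genes were higher in SF and none was lower. The library kit does not mark strand and the counting is not given in the sources used here, so reads of overlapping genes cannot be told apart. Over the whole window from 30000001 to 31000000 on chromosome 7, 28 of 97 tested genes were DEGs, 24 higher and 4 lower in SF, and HF25506, absent from SF, is 1 of the 4.

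On chromosome 2, the run of 6 from 36532393 to 36710664 was higher in SF at low levels. The TIR gene HF06931 was at 2.37, 1.73 and 1.17 in SF and 0 in WF (log2 fold change 1.44, SE 0.18, adjusted p = 0.00749), and a new gene starting at 36541367 (SF 1.66, 1.11 and 0.913), the TIR gene HF06938 (0.793, 1.42 and 1.34), HF06933 (0.681, 0.64 and 1.07) and HF06930 (1.0, 1.39 and 0.436) were also at 0 in WF, while a new gene with the domains of an alpha-N-acetylglucosaminidase, starting at 36532393, was at 1.45, 1.157 and 1.45 and 0.583, 0.33 and 0.577. In that order the adjusted p were 0.00836, 0.00841, 0.0132, 0.0436 and 0.0371, and without WF_EB_2 they were 0.0507, 0.0509, 0.0689, 0.141 and 0.134. All 6 are low genes, and only HF06931 was called in every fit with 1 library left out.

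On chromosome 14, the run from 27208665 to 27281282 was lower in SF. Beside HF01719 above, HF01714 and HF01716 were at 0 in SF and at 2.67, 3.25 and 4.66 and 0.956, 2.08 and 1.22 in WF (log2 fold change -2.16, adjusted p = 0.00209 and log2 fold change -1.25, adjusted p = 0.0136; for HF01716 adjusted p = 0.0591 without SF_EB_2). HF01718 was at 6.21, 5.63 and 5.73 in SF and 18.3, 18.2 and 19.2 in WF (log2 fold change -1.51, SE 0.11, adjusted p = 0.00112) and a new gene starting at 27256382 at 2.78, 2.97 and 2.8 and 16.4, 12.2 and 13.3 (log2 fold change -1.95, SE 0.15, adjusted p = 0.00152). The replicate flowers of HF01718 were within 1.1-fold of each other in either tree, so its 3-fold difference stood well outside the spread. The other run of 5 on this chromosome is that of the P450 genes above.

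**Figure D4:**
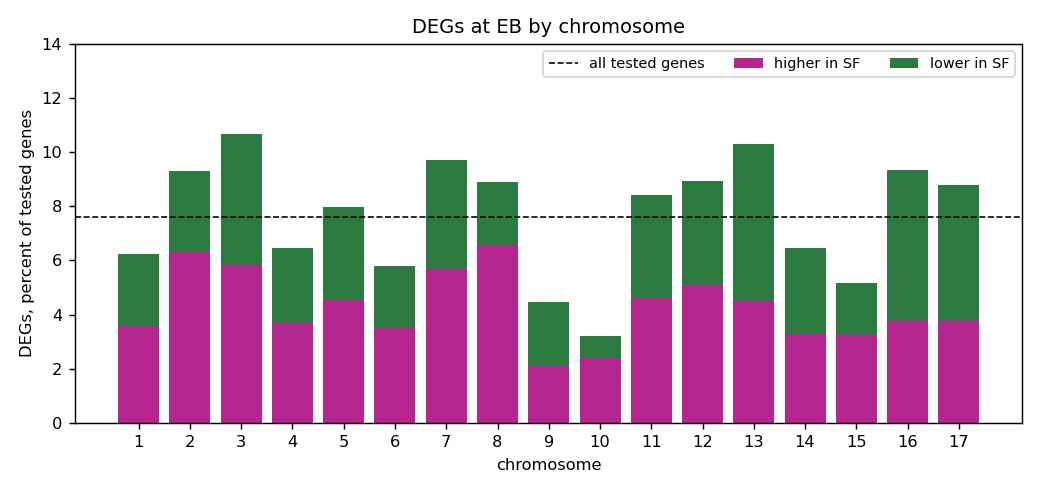
Percent of tested genes that were DEGs at EB on each of the 17 chromosomes, divided into genes higher and lower in SF, with the share over all tested genes (7.59%) dashed. Chromosomes 3 and 13 stand highest and chromosome 10 lowest.

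Some DEGs were found in only 1 of the trees at EB, where a count of 0 allows up to 3 fragments in a library. No fragment was found in any WF flower at EB for 157 DEGs, and 105 of these were also at 0 in all WF flowers of the later stages. For 139 DEGs no fragment was found in any SF flower at EB, of which 107 were at 0 in the SF flowers at ES too but only 33 at 0 in the SF flowers of all stages. Mr flowers at EB lacked 65 of the 157 and 32 of the 139. Genes at 0 in a tree passed the filter only through other libraries, so these counts are not independent of it. The SF libraries were also shallower than the WF libraries. No share over all tested genes was counted beside these numbers. Newly assembled genes were called more often than HF genes, 430 of 2517 (17.1%) against 1820 of 27143 (6.71%), with 270 higher and 160 lower. A model assembled from flowers of only 1 tree would enter the set through the tree where it is high. Some new genes also overlap one another. The part of either in the 17.1% was not tested. Genes without a Pfam description made up 42.1% of the DEGs and 25.7% of the tested genes. The share of DEGs fell from 10.9% of genes with a mean FPKM under 1 to 4.55% of those at 100 or more. A low gene could enter the test because flowers of only 1 tree reached an FPKM of 1, so the first share is not independent of the filter. The part of the filter in this trend was not tested.

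The libraries of ES and LS, other flowers of the same 2 trees, gave values that the EB calls had not used. At ES, 2180 of the 2250 DEGs (96.9%) had the same sign, against 70.6% of all tested genes, and 1873 (83.2%) had groups that did not overlap in the same direction, against 28.2% of all genes in either direction (14.5% with SF higher, 13.6% with SF lower). At LS the same sign was kept by 2050 (91.1%, all genes 61.0%) and non-overlapping groups by 1434 (63.7%, all genes 21.2%, of which 11.6% with SF higher and 9.59% with SF lower). Passing the test again in the same direction were 1302 at ES (57.9% of the EB DEGs and 53.9% of the 2414 ES DEGs, which are 8.14% of tested genes) and 700 at LS (31.1% and 70.5% of the 993 LS DEGs, 3.35%). In all 3 stages 639 genes were DEGs in 1 direction, 353 higher and 286 lower in SF. HF32696 had log2 fold changes of 8.74, 8.52 and 7.61 at EB, ES and LS, HF39406 of 7.58, 8.34 and 7.68, and HF26406 of 6.11, 5.8 and 6.09. All 30 TIR genes called at EB kept their sign at both later stages, and 24 and 16 of them passed again at ES and LS. This was not particular to TIR genes, since all 23 P450 and all 21 NB-ARC DEGs also kept their sign at both stages. At ES and LS the sign was kept by 6 and 4 of the 8 aquaporin DEGs and by 17 and 10 of the 17 2OG-Fe(II) oxygenase DEGs.

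Whether a difference at EB was larger or smaller than later was tested by interaction contrasts in limma. Between EB and ES no gene passed, with 2184 of 29660 at an unadjusted p under 0.05. A fit of all 9 groups called 23. Between EB and LS 50 genes passed (0.169% of tested genes), and 41 of them were EB DEGs. Over the fits with 1 library left out this count ran from 27 to 100. HF08921 was at 2.68, 1.92 and 0.458 in SF and 0.364, 0.0567 and 0.483 in WF at LS, far below the SF values at EB (difference of log2 fold changes 4.85, SE 0.453, adjusted p = 0.00395). HF25506, at 20.3, 54.8 and 54.2 in WF at EB, was at 0.413, 0.919 and 0.119 there at LS. The ABC-2 transporter HF26359 was lower in SF at EB, at 1.2, 2.22 and 1.1 against 4.1, 4.49 and 5.45 (log2 fold change -1.20, adjusted p = 0.0272; adjusted p = 0.103 without WF_EB_2), and at LS stood at 13.2, 14.6 and 6.99 in SF against 0.319, 0.872 and 0.29 in WF, the opposite order with no overlap. For HF21345 the groups overlapped at LS, with 12.1, 17.5 and 10 in SF and 14.9, 8.38 and 14.1 in WF.

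**Figure D5:**
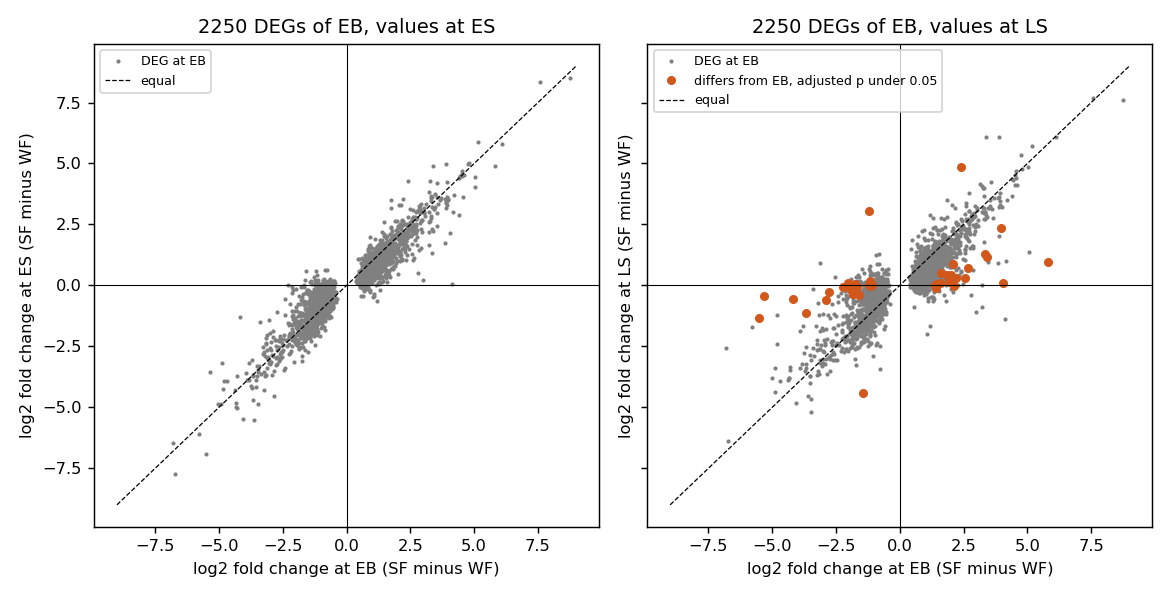
Log2 fold change (SF minus WF) of each of the 2250 EB DEGs at ES (left) and at LS (right) against its value at EB, with a dashed line of equality. Orange points mark the 41 EB DEGs whose difference at LS differed from that at EB (adjusted p under 0.05 by limma), and 2180 and 2050 points keep the sign they had at EB.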

How the data were processed

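RNA of individual whole flowers was sequenced as 150 bp paired ends, and the deposited values are FPKM made by the authors on the apple HFTH1 genome v1.0. The submitters' processing notes name StringTie 1.3.3b and DESeq2 1.16.1, while names of the aligner and counter were not given in the sources used here. Of the deposited FPKM, 771151 values of up to 1000 fragments were checked and 100% came out as whole fragments (tolerance 0.05), which gave the depth of each library. They carry a median-of-ratios scaling. Lengths of HF genes are mostly coding lengths.

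Genes reaching an FPKM of 1 in 3 or more of the 27 libraries were tested on log2(FPKM + 1) with limma 3.58.1 (R 4.3.3, mean-variance trend) over the 6 libraries, with Benjamini-Hochberg adjustment over all 29660 genes and a threshold of 0.05. Interaction contrasts with ES and LS used the libraries of both stages. The fit was tested on simulated data. Alternatives were other pseudocounts, filters, scalings, precision weights on the recovered fragments, a replicate block, each library left out and 1 fit over all 9 groups.

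Families were defined by Pfam accessions, and lists of pathway genes, network genes and transcription factors came from the study. The genes named are the 10 largest rises and falls, the 5 most abundant DEGs in each direction, the largest changes of each family, the longest runs of neighbouring DEGs and the listed genes. Members and lists were chosen with earlier results of these data known. No sequences were printed because no reference of this genome was used here.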

Additional observations from a re-analysis of the deposited data

Results flagged for a closer look

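The difference between SF and WF was not the same at EB and at LS for 8 of the genes named, by the interaction contrast of limma (EB minus LS, adjusted p under 0.05). The values are log2 fold changes at EB minus those at LS.

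Larger in favour of SF at EB were the glycosyl hydrolase HF08921 (4.85, adjusted p = 0.00395), the cupredoxin HF21345 (3.96, adjusted p = 0.0348) and the pollen Ole e 1 gene HF23935 (1.96, adjusted p = 0.0459). At LS HF23935 was at 1.42, 0.232 and 0.437 in SF and 0, 0 and 0 in WF.

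Larger in favour of WF at EB were 5 genes. The kinase HF25506 differed by -4.88 (adjusted p = 0.00434), and at LS SF was at 0.185, 0 and 0. The ABC-2 transporter HF26359 differed by -4.24 (adjusted p = 0.00395) and had opposite directions at the 2 stages. The 2OG-Fe(II) oxygenase HF40244 differed by -4.18 (adjusted p = 0.0465), with 15.5, 11 and 10.2 in SF and 16.7, 64 and 29.1 in WF at LS. A newly assembled GDSL lipase gene on chromosome 4 from 29863404 to 29865477 differed by -2.14 (adjusted p = 0.0309), from 0.401, 0.587 and 1.46 against 6.21, 6.13 and 6.28 at EB to 0.511, 0.334 and 0.197 against 0, 0.444 and 0.328 at LS. The AP2 gene HF02343 differed by -1.69 (adjusted p = 0.0348), with 0, 0.231 and 0.109 and 0.0451, 0.175 and 0.272 at LS.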

How the results depend on the processing

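The count of 2250 DEGs (1256 higher, 994 lower in SF) became 1264 (702, 562) with a filter of FPKM 5, 4729 (2551, 2178) in a fit of all 9 groups, 1389 (785, 604) with a log2 fold change of at least 1, and 872 to 2047 (494 to 1121, 378 to 998) with 1 library left out. It was 2206 with a pseudocount of 0.1, 2327 with no filter, 2083 with the filter over the 6 libraries, 2111 scaled to total fragments, 2258 with median-of-ratios scaling, 2226 without the trend and 2073 with precision weights. With a replicate block it was 728 (414, 314), of which 707 were among the 2250. Same-numbered flowers of the 2 trees did not deviate together (correlations of 0.013, -0.024 and -0.115) and none correlated best with its own number. Flowers of different numbers correlated at -0.256 to 0.296. With 3 flowers a tree, these values cannot tell whether flowers of 1 number shared a batch. No pairing by number was used in the main fit. The interaction with ES gave 0 genes, 23 in the fit of all 9 groups and 0 to 1 with 1 library left out, and that with LS gave 50, 355 and 27 to 100. No named gene changed direction under these alternatives, and of 217 named DEGs 114 lost the call with the block, 54 to 99 with 1 library left out, 25 in the fit of all 9 groups, 20 with precision weights, 16 with no filter and 14 with the other pseudocount. The depth of these libraries limits what can be seen of genes near an FPKM of 0.0950 to 0.185 at 1 kb. The cause of these changes was not tested.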
